A study of Mus musculus with 7 samples.

Results

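Matrix metalloproteinases (MMP), disintegrin metalloproteinases (ADAM), and ADAM proteins with thrombospondin repeats (ADAMTS, with the related ADAMTS-like proteins) were examined in mesenteric artery, the small resistance-type vessels that feed the gut. The genes were taken by symbol from the rows that carry exactly 1 gene symbol, and a gene with several rows was represented by the row of highest mean over the arrays. This gave 61 genes of the 14860 distinct genes named in the table: 20 MMP, 25 ADAM, 12 ADAMTS and 4 ADAMTS-like genes, in 62 rows. Adam23 was the gene with a second row. A further 4 rows, which share symbols among the germ line ADAM genes Adam25, Adam26a, Adam26b, Adam34 and Adam39, were tested but not used as members. Adam17, Adamts2 and Adamts9 were sought by name, are not named in the annotation used here and were not analysed here.

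The comparison had 2 groups. The transgenic group was 3 male mice that carry human PPARγ with the dominant-negative P467L mutation, driven by the smooth muscle myosin heavy chain promoter, and the control group was 4 littermates without the transgene. All 7 animals kept their own mouse Pparg, each array held the artery RNA of 1 mouse, and no age is given in the labels. PPARγ, a nuclear receptor, activates genes as a pair with a retinoid X receptor, and the mutant protein blocks that action, so the comparison asks which vessel transcripts depend on PPARγ in smooth muscle. Since the RNA came from whole artery, fewer cells of a type and less RNA per cell cannot be told apart.

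The enzymes share a zinc-binding active site and are made as inactive precursors. MMPs cut collagen, elastin and other proteins of the vessel wall. ADAMs sit in the cell membrane and release the outer parts of growth factors, receptors and adhesion molecules, although several ADAMs, among them Adam11, Adam22 and Adam23, lack a working active site. ADAMTS enzymes are secreted and cut proteoglycans such as versican and aggrecan, trim the ends of collagens, or bind to fibrillin microfibrils, and ADAMTS-like proteins keep the binding parts without the enzyme. Their activity in tissue is held back by the TIMP proteins and by other inhibitors.

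Over the whole table, array medians lay between 6.29 and 6.34 on the log2 scale, lower quartiles between 5.26 and 5.29, and upper quartiles between 7.10 and 7.29. On the leading principal component, with 33.7% of the variance, P467L replicate 3 was at 42.9 and P467L replicate 2 at -31.2, the ends of the range. The 9 measured smooth muscle markers were above the upper quartile of each array, and Myh11, the gene whose promoter drove the transgene, lay between 11.32 and 11.57. The row of Pparg, made for the mouse gene, read 6.78 ± 0.30 (SD, n = 4) without and 6.66 ± 0.16 (SD, n = 3) with the transgene (limma, adjusted p = 1). It cannot check the genotype labels, since its binding to the human transgene is not known here. Nothing in the values gives a detection limit, and precision is limited by how few arrays there are.

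Many of the measured MMP genes lie side by side in the genome. In the RefSeq gene order of mouse (assembly GRCm38), 10 Mmp genes follow each other on chromosome 9 with no other protein-coding gene between them, and 9 of them were measured here, all but Mmp27. Of these, 8 have the letters TGANTCA, where N is any base, upstream of a RefSeq start. The AP-1 transcription factors (Fos and Jun), which are known to drive several MMP genes, bind TGAGTCA or TGACTCA. The searched form TGANTCA is looser than that, and Mmp20 matches it with TGAATCA. All counts given here are of the looser form. The stretches that hold TGANTCA are shown because most genes of this run share it. Each is read 5′ to 3′ on the strand of its gene and ends at or before the start. Capitals mark TGANTCA and, where present in the stretch, TATAAA, the usual letters of a TATA box. Mmp12 has TATAAA in its searched window, but outside the stretch shown.
Mmp13: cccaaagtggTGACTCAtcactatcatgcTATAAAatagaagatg
Mmp12: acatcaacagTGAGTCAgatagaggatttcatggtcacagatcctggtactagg
Mmp1b: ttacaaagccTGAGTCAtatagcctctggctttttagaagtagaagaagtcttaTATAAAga
Mmp3: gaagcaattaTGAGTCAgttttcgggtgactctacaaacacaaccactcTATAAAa
Mmp1a: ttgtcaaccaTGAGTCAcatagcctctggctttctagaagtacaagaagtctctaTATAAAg
Mmp10: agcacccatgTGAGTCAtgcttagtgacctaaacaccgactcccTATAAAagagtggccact
Mmp20: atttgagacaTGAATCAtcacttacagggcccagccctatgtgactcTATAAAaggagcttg
Mmp7: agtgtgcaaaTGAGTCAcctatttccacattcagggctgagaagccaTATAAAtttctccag

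These stretches come from the RefSeq promoter table of build GRCm38.p6, and on it the stretch of Mmp3 is chr9:7445766-7445821 on the plus strand and that of Mmp13 is chr9:7272469-7272513 on the plus strand. The motif begins between 35 and 95 bases before the start. Mmp8, the neutrophil collagenase, has a window in the table without the motif. Windows run from 250 bases before to 50 bases after each start, and 36 of the 61 genes had one. TGANTCA, which reads the same on both strands, was found in 12 of the 36 genes (33.3%), against 8.97% of the 27025 genes in the table, and 8 of those 12 are the genes above. AGGTCA, the half-site of nuclear receptors such as PPARγ, was searched on both strands and found in 9 of 36 genes, against 18.1% of all genes. The paired form AGGTCANAGGTCA was found in 0 of 36, against 0.0481% of all genes. TATAAA, searched on the strand of the gene, was found in 12 of 36, against 9.77% of all genes. Of the TGANTCA matches, 0 overlapped a match of AGGTCA or TATAAA in the windows of these 36 genes. A match is a run of letters, not a measured site, and these 300-base windows leave out enhancers.

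Among the chromosome 9 neighbours, Mmp3 was the gene above the array median in every mouse. Mmp3, the stromelysin that cuts proteoglycans and activates other MMPs, was at 8.17, 7.78, 7.94 and 7.82 in the non-transgenic mice and at 7.94, 8.19 and 7.70 in the P467L mice. The groups overlapped fully, and P467L replicates 2 and 3 held both ends of the range. Its difference, P467L minus non-transgenic, was 0.016 (95% interval -0.34 to 0.37; limma, adjusted p = 1). On the other side, 6 of the 9 were below the lower quartile of every array: Mmp13, Mmp12, Mmp1b, Mmp1a, Mmp8 and Mmp20. Mmp12, the macrophage elastase, was at 4.71, 4.75, 4.71 and 4.66 in non-transgenic and at 4.89, 4.71 and 4.71 in P467L artery. Mmp7, the small matrilysin, ran from 5.15 to 5.57 and Mmp10, a second stromelysin, from 6.19 to 6.42 over the 7 mice. Differences in this run of genes lay between -0.085 (Mmp7) and 0.15 (Mmp20), with a median of 0.00083. Different probes have different brightness, so a low value is a dim row and not a measured absence.

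**Figure D1:**
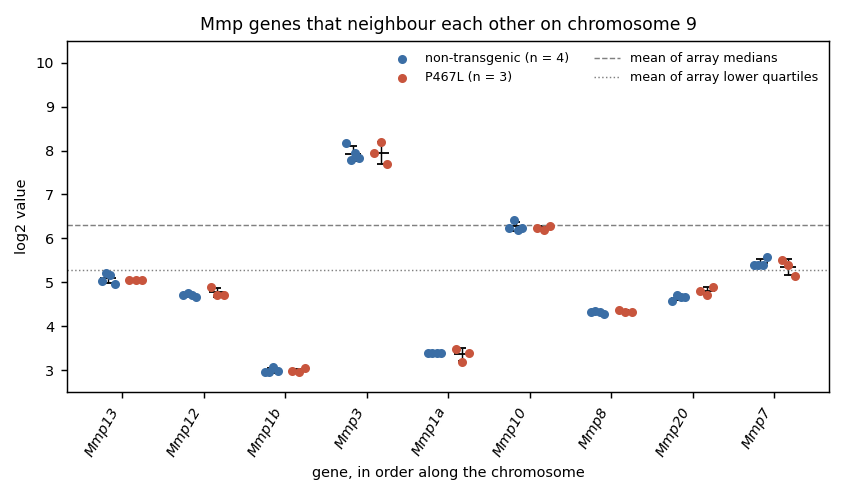
Log2 value (vertical axis) of the 9 measured Mmp genes that neighbour each other on chromosome 9, in their order (horizontal axis), with a point per mouse, a dash and bar for the group mean and SD, and grey lines at the mean array median and mean array lower quartile. Mmp3 is the gene that lies above the dashed line in all 7 mice.

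Across the 3 families, 0 of the 61 genes passed an adjusted p of 0.05 in limma, the test fitted to all rows, and 0% of all 23332 rows did. Each of the 61 genes had an adjusted p of 1. At an unadjusted p of 0.05, 4 of 61 genes were listed (6.56%), against 3.10% of all rows, in which 1.55% had higher and 1.56% lower means: Adamts5, Adam6b and Mmp20 with higher means and Adamtsl1 with a lower mean in P467L artery. In 3 of 61 genes (4.92%) the values of both groups did not overlap, against 2.57% of all rows, 1.29% with higher and 1.28% with lower values. These are counts of 4 and 3 genes, and nothing particular to the families is drawn from them. Means were higher in P467L artery for 27 and lower for 34 genes, with a median difference of -0.011, and over all rows the median was -0.0025. The median absolute difference was 0.048 in these genes, 0.051 over the 14860 genes with 1 symbol and 0.072 over all rows.

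The precision of the comparison varied by gene. In 54 of 61 genes the 95% interval lay within 0.5 on the log2 scale in either direction, which is a 1.41-fold difference. The 7 genes whose interval reached further were Adamts1, Adamts5, Adamtsl1, Adam4, Adam6a, Adam20 and Adam29. Some of the narrow intervals come from repeated values: 29 of 61 genes (47.5%) had the same value on 4 or more arrays, against 28.6% of genes with 1 symbol and 20.02% of all rows. Adamts7, for instance, was at 6.37 on 6 arrays and at 6.48 in P467L replicate 3. Median polish over few arrays is known to return such ties, and an interval built on them may be too narrow.

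**Figure D2:**
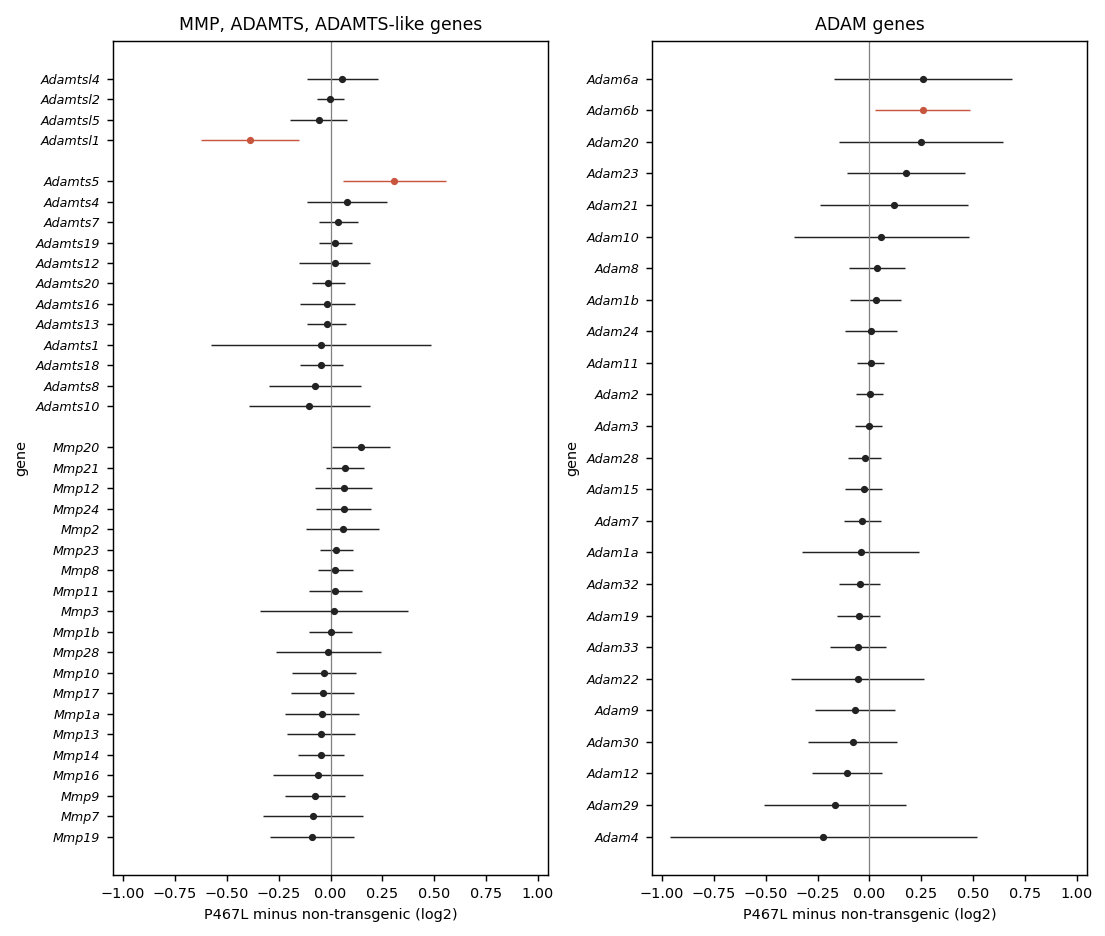
Difference of group means on the log2 scale, P467L minus non-transgenic (horizontal axis), with its 95% interval from limma for each of the 61 genes (vertical axis); red marks the 3 genes whose groups do not overlap. Intervals of all other genes but Mmp20 include 0, and that of Adam4 is the widest.

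The largest difference in size was that of Adamtsl1. Adamtsl1, also called punctin, is a secreted matrix glycoprotein with thrombospondin repeats and no protease domain. It was at 6.64, 6.54, 6.46 and 6.76 in the non-transgenic mice and at 6.05, 6.27 and 6.31 in the P467L mice. All P467L values lay below all non-transgenic values, by at least the gap from 6.31 to 6.46. The mean was 6.6 ± 0.13 (SD, n = 4) against 6.21 ± 0.14 (SD, n = 3), a 1.31-fold lower mean in P467L artery with a difference of -0.39 and a 95% interval from -0.63 to -0.15 (limma, adjusted p = 1, unadjusted p = 0.00689). The other ADAMTS-like genes were Adamtsl2, Adamtsl4 and Adamtsl5, with differences of -0.00083, 0.056 and -0.058. Adamtsl4, which binds fibrillin microfibrils, was at 7.22, 7.25, 7.22 and 7.22 in non-transgenic mice and at 7.22, 7.18 and 7.45 in P467L mice. P467L replicate 3 alone stood above the rest, and without it the difference was -0.028.

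Adamts5 had the largest higher mean. Adamts5 codes for aggrecanase-2, which cuts aggrecan and versican, the large proteoglycans of cartilage and of the vessel wall. It was at 8.20, 8.17, 8.13 and 8.0 in non-transgenic and at 8.38, 8.65 and 8.27 in P467L artery. The groups did not overlap, and P467L replicate 2 was the highest of the 7. The mean was 8.43 ± 0.20 (SD, n = 3) against 8.125 ± 0.088 (SD, n = 4), a 1.24-fold higher mean with a difference of 0.31 and a 95% interval from 0.059 to 0.56 (limma, adjusted p = 1, unadjusted p = 0.0231). Without P467L replicate 2 the difference was 0.20 (unadjusted p = 0.0396), and without non-transgenic replicate 4 the unadjusted p was 0.0556.

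Most fibroblast and macrophage markers had higher means in P467L artery, as Adamts5 had. Of 12 measured fibroblast markers 11 had higher means in P467L artery, and the mean log2 value of the list was 8.19 to 8.46 in non-transgenic and 8.35 to 8.55 in P467L mice. Of 13 macrophage markers 13 had higher means, with overlapping groups in each. The list was at 6.59 to 6.85 in non-transgenic and at 6.61 to 7.14 in P467L mice. It was highest in P467L replicate 2, as Adamts5 was, and that mouse was the highest for 11 of the 13 markers. P467L replicates 1 and 3, with the list at 6.82 and 6.61, lay inside the non-transgenic range. These are log2 array values, in which no marker is at 0. With the macrophage score as a covariate the difference of Adamts5 was 0.17 (limma, adjusted p = 0.422, unadjusted p = 0.0421), and with the fibroblast score it was 0.26 (limma, adjusted p = 0.804, unadjusted p = 0.0853). With the same covariates Adamtsl1 was at -0.39 and -0.41. With the adipocyte score as a covariate Adamts5 was at 0.33 and Adamtsl1 at -0.35. Of 9 measured adipocyte markers 8 had lower and 1 a higher mean in P467L artery. That list was at 6.97 to 8.01 in non-transgenic and at 6.97 to 7.30 in P467L mice. Non-transgenic replicate 1 was the highest mouse for 7 of the 9. The marker lists themselves differed in mean between the groups, so these fits cannot separate cell types from the transgene. The 9 smooth muscle markers all had lower means, with lists at 10.12 to 10.29 and 10.03 to 10.16. The groups did not overlap in 2 of these 9 (22.2%) and in 1 of the 12 fibroblast markers (8.33%), against 2.57% of all rows. The part of any of these cell types in the differences of Adamts5 and Adamtsl1 was not tested.

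**Figure D3:**
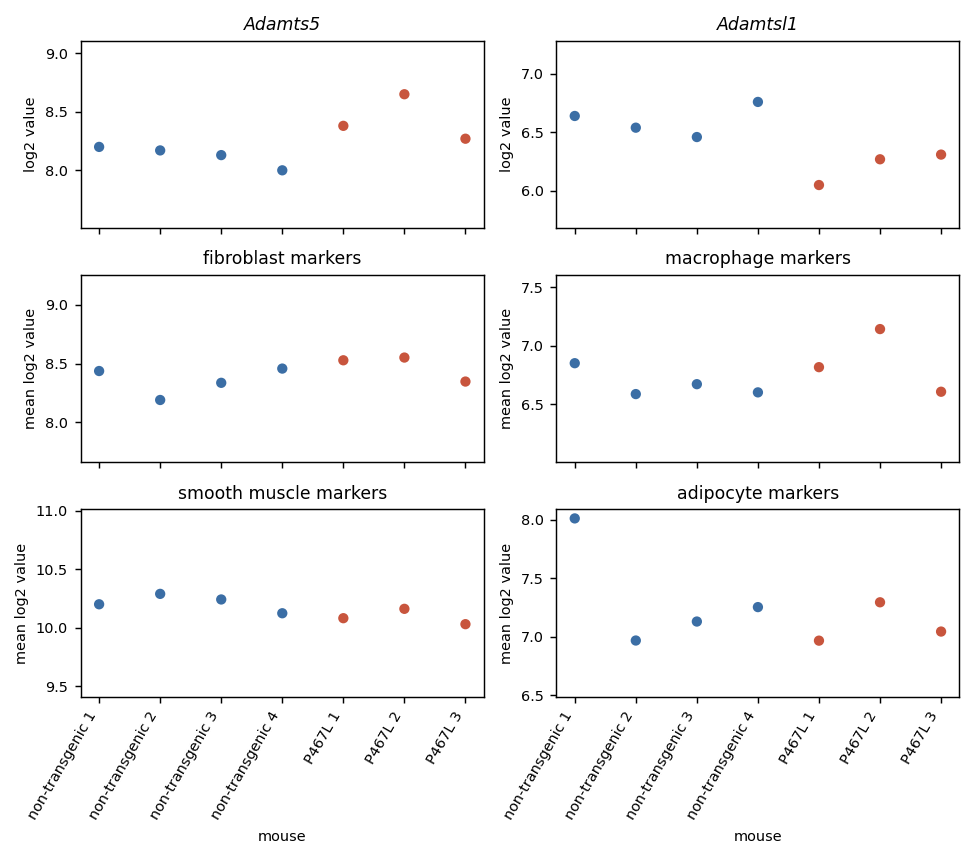
Log2 value of Adamts5 and Adamtsl1 and the mean log2 value of 4 lists of cell type markers (vertical axes, all spanning the same range) in each of the 7 mice (horizontal axis, blue for non-transgenic and red for P467L). Adamts5 and the macrophage markers are both highest in P467L replicate 2, and the adipocyte markers are highest in non-transgenic replicate 1.

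Adamts1, the gene next to Adamts5 on chromosome 16, did not show the same values. It too cuts aggrecan and versican and is known as an early response gene. It was at 9.05, 9.18, 8.86 and 8.56 in non-transgenic and at 8.92, 9.20 and 8.48 in P467L mice. P467L replicate 2 held the top and P467L replicate 3 the bottom of the range. The difference was -0.046 (95% interval -0.58 to 0.49; limma, adjusted p = 1), wide enough to hold the difference of Adamts5. Adamts4, the enzyme known as aggrecanase-1, was at 5.73, 5.85, 5.85 and 5.85 against 5.85, 5.78 and 6.07, and without P467L replicate 3 its difference of 0.080 became -0.005. Adamts8 and Adamts20, further members of this branch, differed by -0.074 and -0.011.

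The remaining ADAMTS genes varied little between the groups. Their 7 differences lay between -0.10 and 0.037, and 0 of them reached an unadjusted p of 0.05. Adamts10, which binds fibrillin, was at 6.76, 6.93, 6.86 and 6.99 in non-transgenic and at 6.52, 6.86 and 6.97 in P467L artery, with P467L replicate 1 the lowest. Adamts7, an enzyme that cuts cartilage oligomeric matrix protein, differed by 0.037, all of it from P467L replicate 3. Adamts18 had the smallest unadjusted p of this group, 0.321, with a difference of -0.046.

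Both gelatinases had overlapping groups. Mmp2, which cuts denatured collagen and the collagen of basement membranes, was at 7.51, 7.39, 7.51 and 7.62 in non-transgenic and at 7.68, 7.51 and 7.51 in P467L artery. Its difference was 0.059 (95% interval -0.12 to 0.23; limma, adjusted p = 1), and without P467L replicate 1 it was 0.0025. Mmp9, the gelatinase of neutrophils and macrophages, was at 5.81, 5.85, 5.83 and 5.79 against 5.81, 5.61 and 5.81, with P467L replicate 2 the low sample. Its difference was -0.077, and -0.010 without that mouse.

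The membrane-type enzymes had close group means as well. Mmp14, which activates the Mmp2 precursor at the cell surface, was at 6.98, 7.0, 6.87 and 6.88 against 6.88, 6.90 and 6.88. The P467L values lay inside the non-transgenic range, and the difference was -0.046 (95% interval -0.16 to 0.064; limma, adjusted p = 1). Mmp16, Mmp17 and Mmp24, other membrane-bound MMPs, differed by -0.060, -0.038 and 0.063. Mmp16 was at 6.43 in each non-transgenic mouse and at 6.25, 6.59 and 6.27 in the P467L mice, which held both ends of its range. Mmp24 stood at 5.90 in P467L replicate 3, above a range of 5.70 to 5.73 in the other mice.

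Of the other MMPs, Mmp20 and Mmp21 had the smallest p. Mmp20, the enamel protease of developing teeth, was at 4.58, 4.70, 4.66 and 4.67 against 4.81, 4.70 and 4.89 (unadjusted p = 0.0407). Its groups touched at 4.70, and all 7 values were below the lower quartile of their array. That p was under 0.05 in 6 of the 17 alternatives that kept the gene, and it was 0.0752 with arrays centred on their medians and 0.120 with tied rows left out. Leaving out P467L replicate 1 or 3 gave 0.0971 or 0.109, and leaving out non-transgenic replicate 1, 3 or 4 gave 0.0879, 0.0740 or 0.0678. Mmp21, known from left-right patterning of the embryo, differed by 0.070. Mmp19 and Mmp23, both above the array median in every mouse, differed by -0.089 and 0.028.

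**Figure D4:**
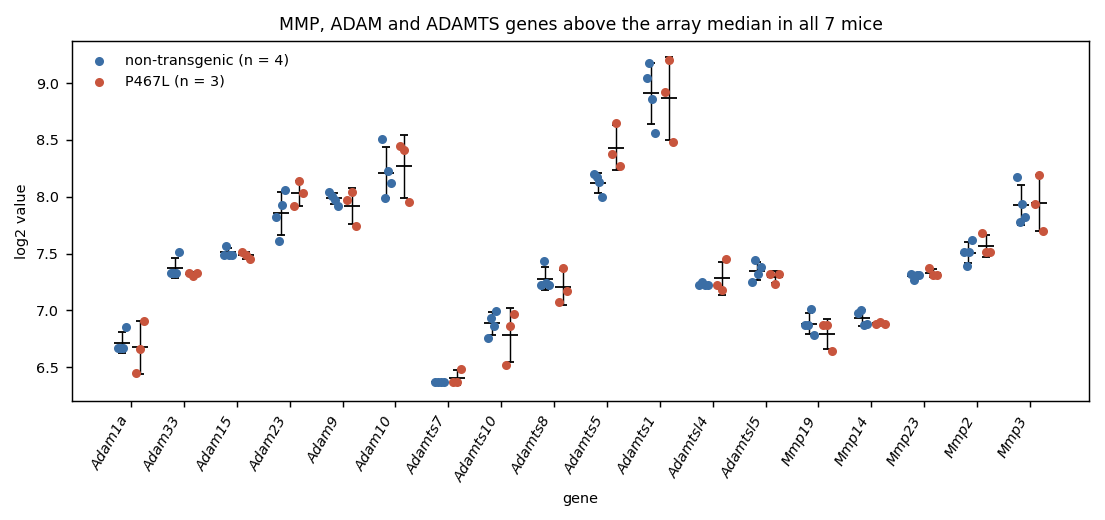
Log2 value (vertical axis) of the 18 genes of these families that were above the array median in all 7 mice (horizontal axis), with a point per mouse and a dash and bar for the group mean and SD (n = 4 non-transgenic, n = 3 P467L). Among them the points of both groups are apart for Adamts5, and they overlap or touch for the others.

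ADAM genes with a working active site in body tissues had small differences. The 8 measured genes lay between -0.11 and 0.058, with 6 lower and 2 higher means. Adam10, which releases the outer parts of Notch receptors and of the amyloid precursor protein, was at 8.51, 7.99, 8.23 and 8.12 in non-transgenic and at 8.45, 8.41 and 7.95 in P467L artery. The difference of 0.058 had a 95% interval from -0.37 to 0.48 (limma, adjusted p = 1), and it was 0.22 without P467L replicate 3, the lowest array, and -0.033 without P467L replicate 1. Adam9, a sheddase found in many cells, was at 8.04, 8.01, 7.97 and 7.92 against 7.97, 8.04 and 7.74, again with P467L replicate 3 the lowest. Its difference of -0.068 was 0.020 without that mouse. Adam12, known as meltrin alpha, was at 5.61, 5.71, 5.59 and 5.67 against 5.61, 5.39 and 5.61, and P467L replicate 2 alone lay below the non-transgenic range. Adam19, known as meltrin beta, differed by -0.053, and Adam15 and Adam33 by -0.027 and -0.055.

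The ADAMs without an active site that are best known from the nervous system were Adam11, Adam22 and Adam23. Adam23, which binds LGI proteins at synapses, was at 7.82, 7.61, 7.93 and 8.06 in non-transgenic and at 7.92, 8.14 and 8.03 in P467L artery. The P467L values sat in the upper part of the range, with overlap, and the difference was 0.175 (95% interval -0.11 to 0.46; limma, adjusted p = 1). Without non-transgenic replicate 2, the lowest array, it was 0.093. The second row of the gene differed by 0.0625. The 8 measured nerve and Schwann cell markers had 5 higher and 3 lower means.

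Most ADAM genes known from the germ line were dim. Of 14 measured, 8 were below the lower quartile in every mouse, and the 14 differences lay between -0.22 (Adam4) and 0.26 (Adam6b and Adam6a). Adam6b was at 4.85, 4.54, 4.89 and 4.77 in non-transgenic and at 5.10, 4.97 and 4.99 in P467L mice, with no overlap and a difference of 0.26 (limma, adjusted p = 1, unadjusted p = 0.0333). The unadjusted p of Adam6b was under 0.05 in 10 of 17 alternatives. It was 0.105, 0.0560 and 0.0646 without P467L replicate 1, 2 and 3 in turn, 0.0645 without non-transgenic replicate 4, 0.119 with the fibroblast score and 0.110 with the macrophage score as a covariate. Adam6a, its neighbour on chromosome 12, was at 5.36, 4.77, 5.25 and 5.31 against 5.31, 5.31 and 5.67, and its groups overlapped. Its difference was 0.12 without non-transgenic replicate 2. Both genes lie inside the immunoglobulin heavy chain locus in the mouse and are known to be needed for sperm function. Of 10 measured lymphocyte markers 7 had higher and 3 lower means, with list levels of 5.38 to 5.52 and 5.34 to 5.59, and their part in the values of Adam6b was not tested.

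Several of the genes with the widest spread between mice had both ends of it in the P467L group. In 25 of 61 genes the SD over the 7 arrays was above 0.1. Adam4, a germ line gene, had the largest at 0.41, with 6.10, 5.67, 5.94 and 5.87 in non-transgenic and 5.47, 6.40 and 5.15 in P467L mice. Leaving out P467L replicate 3 turned its difference of -0.22 to 0.04, and leaving out P467L replicate 2 gave -0.585. P467L replicate 3 was alone the lowest array in 10 genes (16.4%) and alone the highest in 14 (23.0%), against 24.8% and 16.3% of all rows. P467L replicate 2 was the lowest in 15 genes (24.6%), against 15.3% of all rows. For Mmp3, Adam4 and Adamts1 P467L replicate 2 was the highest and P467L replicate 3 the lowest mouse. For Mmp28, Adam1b and Adamtsl4 the order was the reverse, with Mmp28 at 6.18 in replicate 2 and 6.58 in replicate 3. These mice also held the ends of the first principal component. The share of all rows with both ends in the P467L group was not counted.

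**Figure D5:**
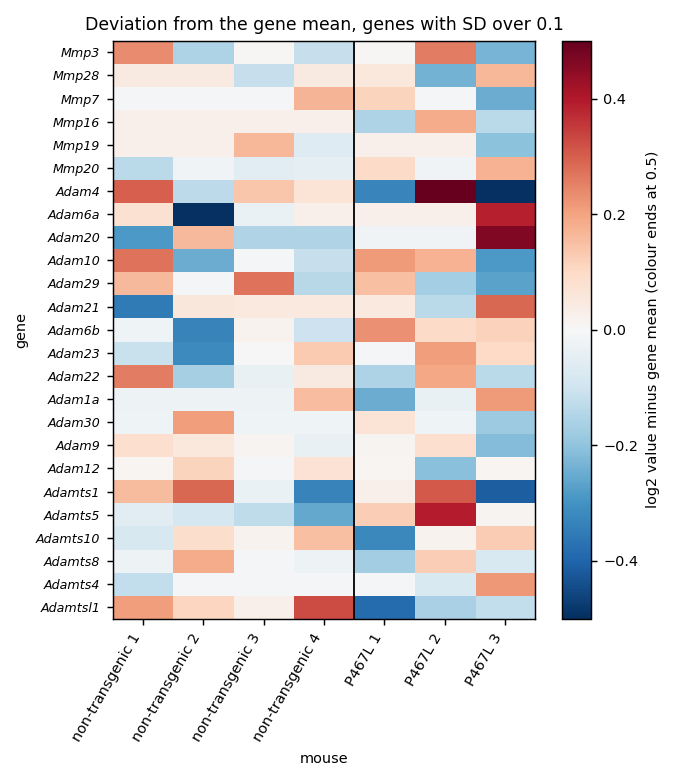
Log2 value minus the mean of the gene over all mice (colour, red above and blue below) for the 25 genes with an SD over 0.1 (vertical axis) in each mouse (horizontal axis), with a line between the 4 non-transgenic and the 3 P467L mice. Adam4, Adamts1 and Mmp3 are high in P467L replicate 2 and low in P467L replicate 3, and Mmp28 is the reverse. Adamtsl1 is low in all 3 P467L mice.

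Genes that hold these enzymes back, activate them or are cut by them were read from lists. In each list 0 genes passed an adjusted p of 0.05 in limma. Of 12 inhibitors 6 had higher and 5 lower means, with a median difference of 0.0033, and 1 was listed at an unadjusted p of 0.05 (8.33%, against 3.10% of all rows). This was Timp4, a TIMP of muscle and fat, at 8.93, 9.01, 8.89 and 8.84 in non-transgenic and 7.93, 8.07 and 8.44 in P467L artery, with no overlap (limma, adjusted p = 1). Timp1, Timp2 and Timp3 differed by -0.047, -0.011 and 0.045, all with overlapping groups, and Reck, a membrane-bound MMP inhibitor, by 0.054.

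Of 15 activators, among them plasminogen, its activators and the furin-like enzymes, 0 were listed at an unadjusted p of 0.05, and the median difference was -0.0125. The protease gene Ctsb differed by 0.064. Of 12 regulators of Adam10 and Adam17, 0 were listed, with Pacs2 at -0.12 and Rhbdf1, an iRhom that carries Adam17 to the surface, at 0.047. Of 34 substrates of ADAMs 0 were listed. In 2 of these (5.88%, against 2.57% of all rows) the groups did not overlap, with the adhesion receptor Cd44 at -0.155 and the growth factor Btc at 0.12. Without P467L replicate 1 the difference of Btc was 0.06. Of 16 other zinc metalloproteinases 0 were listed, and Enpep, an aminopeptidase of angiotensin II, differed by 0.29 with overlap.

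Of 32 matrix substrates of MMP and ADAMTS enzymes, 11 had higher and 21 lower means, with a median difference of -0.045. At an unadjusted p of 0.05, 3 were listed (9.375%, against 3.10% of all rows). Postn, the matrix protein periostin, was at 10.08, 9.70, 10.16 and 9.73 in non-transgenic and 9.52, 9.45 and 8.62 in P467L artery, with no overlap and a difference of -0.72 (limma, adjusted p = 1). P467L replicate 3 was the lowest, and without it the difference was -0.43. Col4a1, a chain of basement membrane collagen, differed by -0.21, and the proteoglycan gene Dcn by 0.27. Dcn is also one of the fibroblast markers given above.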

How the data were processed

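RNA of mesenteric artery was measured on 7 Affymetrix mouse exon arrays, 4 non-transgenic and 3 P467L, 1 mouse each. The deposited values are log2 values, for which the submitters' processing notes name RMA, Affymetrix Power Tools and mm9, without versions or options. RMA as usually run corrects background, which compresses differences of dim probes, then aligns array distributions and summarises probes by median polish.

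All 23332 rows were fitted with limma 3.58.1 in R 4.3.3 (lmFit, eBayes, no filter or covariate). P-values were adjusted by Benjamini-Hochberg over the whole table at a threshold of 0.05, and intervals are 95% intervals. A difference is P467L minus non-transgenic on the log2 scale. The fit was tested on simulated data, in which rows were changed by 0.5, 1 or 2 on the log2 scale. It called 34.3%, 59.7% and 90.9% of these, with 6 false calls, so most changes of 0.5 were missed there. Genes were named by the platform annotation, and the RefSeq table (GRCm38) served for neighbouring genes. Beside the 7 arrays, 0 columns of per-sample values were present. The members and lists were chosen with earlier results of these data known.

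Named genes were 20 chosen by name, the 6 per direction and 1 per branch of smallest p, 3 per list of inhibitors, activators, regulators and substrates, Pparg, Myh11 and the TIMPs. Others with values in single mice, such as Adam4, Adam6a, Adamts10 and Mmp16, were chosen after their values were seen. Alternatives were a further quantile normalization, centring, filters on dim or tied rows, other moderation, array weights, marker scores as covariates, the mean over rows, a replicate block and leaving out each array. Replicate numbers do not pair the mice, as the labels tie them to no litter.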

Additional observations from a re-analysis of the deposited data

Results flagged for a closer look

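In 17 of the 61 genes 1 of the 4 non-transgenic mice stood far from the others, by a gap that exceeds Dixon's critical value for 4 samples. Chance gives about 1 in 20 groups, but in 15 of the 17 the other 3 mice share 1 value, so any departure is counted. Non-transgenic replicate 2 stood apart for Adam15 (7.57, others 7.49), Adam19 (6.23, others 6.18), Adam30 (5.41, others 5.18), Adamts18 (5.52, others 5.51), Adamtsl4 (7.25, others 7.22) and Mmp17 (6.32, others 6.14), high in each. It was also high for Adamts8, at 7.43 against 7.22 to 7.24. Replicate 4 was high for Adam1a (6.85, others 6.67), Adam33 (7.51, others 7.33) and Mmp7 (5.57, others 5.39), and low for Adamts12 (6.20, others 6.37). Replicate 1 was low for Adam2 (3.73, others 3.74), Adamts13 (6.31, others 6.34) and Adamts4 (5.73, others 5.85), and for Adam21 at 6.06 against 6.46 to 6.47. Replicate 3 was high for Adamts20 (5.82, others 5.75) and low for Mmp28 (6.3, others 6.46). A further 9 genes had 1 value in all 4 non-transgenic mice. The P467L group, with 3 mice, was not examined this way.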

How the results depend on the processing

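The count of 0 genes past an adjusted p of 0.05 in limma was 0 under each of the 19 alternatives. The 4 genes at an unadjusted p of 0.05 became 2 when the dimmest 25% and 2 when the dimmest 50% of rows were dropped. Fewer genes are tested there (44 and 24 of 61), and 2.95% and 3.03% of the rows kept were listed. The count became 9 with the macrophage score as a covariate, where 11.4% of all rows were listed. With the replicate number as a block 0 genes were listed, against 3.92% of all rows. Same-numbered mice correlated at 0.12, -0.20 and -0.090 in their deviations, so the numbers are not taken as pairs. With array weights the count was 6, where 12.1% of all rows were listed. With 1 array left out the count ran from 1 to 6. It was 2 without P467L replicate 1 (3.43% of all rows) and 2 without P467L replicate 3 (4.91%). It was 1 without non-transgenic replicate 4 (3% of all rows) and 6 without P467L replicate 2 (5.27%). The 3 genes without overlap ran from 3 to 10 with 1 array left out. There were 10 without P467L replicate 2, 5 without P467L replicate 3 and 6 without non-transgenic replicate 2. Smaller groups separate more easily, and the share of all rows without overlap was not counted in these settings. Nothing about the families is drawn from these counts. The median difference of -0.011 was 0.0015 with array weights, 0.0026 with the fibroblast and 0.0045 with the macrophage score as a covariate, -0.023 when the dimmest 50% and -0.026 when tied rows were dropped, and ran from -0.017 to 0 with 1 array left out. The cause of these shifts was not tested. The sign of the difference was the same in all alternatives run for 24 of 61 genes, among them Adamts5 (0.17 to 0.39), Adamtsl1 (-0.50 to -0.31), Adam6b (0.18 to 0.30) and Mmp20 (0.10 to 0.22), it reached 0 without turning for 8, and it turned in at least 1 for 29. Leaving out 1 array moved the difference by over 1.5 times for 57 of 61 genes. The unadjusted p of Adamts5 was under 0.05 in 16 of 19 alternatives and that of Adamtsl1 in 18 of 19, with 0.0710 and 0.0611 under the block. The filters, other moderation and the mean over rows left the differences of these genes unchanged, so the alternatives are not separate checks. Dim rows and ties limit what these arrays can show for most germ line ADAM genes and most chromosome 9 Mmp genes.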
